A study of Mus musculus with 2 samples.

Results

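The Cyp3a genes encode the cytochromes P450 of the 3A subfamily, and they were examined here in the livers of male mice with and without Pgrmc1. Every gene of the deposited expression table whose symbol is Cyp3a followed by a number and an optional letter was taken, which gave 9 of 24054 genes: Cyp3a11, Cyp3a13, Cyp3a16, Cyp3a25, Cyp3a41a, Cyp3a41b, Cyp3a44, Cyp3a57 and Cyp3a59. The study asked how loss of Pgrmc1, a heme-binding membrane protein that associates with P450 enzymes, affects the liver, and RNA-seq served to compare transcript levels between Pgrmc1 knockout (KO) and wild type (WT) livers. The KO group carried Pgrmc1 -/Y, since Pgrmc1 lies on the X chromosome, and it was a whole-body knockout made by crossing mice with loxP sites around exons 1 and 2 to Sox2-Cre mice, so that every tissue and not the liver alone lacked the gene. Both groups were male C57BL/6 mice of 8 to 12 weeks, and the floxed allele had been made in C57BL/6N embryonic stem cells. Liver RNA from 5 mice of a genotype, 2.5 µg per mouse, was pooled into 1 library for that genotype. With 1 library per genotype there was no spread between mice to measure and no test of a difference, so each value below describes 2 libraries.

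Cyp3a enzymes sit in the membrane of the endoplasmic reticulum, where they oxidize steroids, bile acids and a large share of foreign compounds, drugs among them. They receive electrons from cytochrome P450 reductase (Por), and cytochrome b5 can assist. In hepatocytes their transcription responds to the nuclear receptors PXR (Nr1i2) and CAR (Nr1i3), which bind DNA together with RXR and are activated by foreign compounds and bile acids. In adult mice, Cyp3a11 is the main Cyp3a transcript of the male liver, Cyp3a13 is also known from the intestine, and Cyp3a16, Cyp3a41a, Cyp3a41b and Cyp3a44 are known as transcripts of the female liver.

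The subfamily is a set of tandem copies on chromosome 5. In the GRCm38 annotation, 8 of the 9 genes lay within 769.8 kb, in the order Cyp3a57, Cyp3a16, Cyp3a41b, Cyp3a41a, Cyp3a44, Cyp3a11, Cyp3a25 and Cyp3a59, and Cyp3a13 (137892933 to 137925610) lay 7419.5 kb away from them. Cyp3a11 (145854607 to 145879854) had Cyp3a44 as its neighbour at 48.7 kb and Cyp3a25 (145977192 to 146009644) at 97.3 kb. Cyp3a57 and Cyp3a59 at the ends of the cluster were on the plus strand and the others on the minus strand. Each gene had 13 exons in its main GENCODE transcript and a coding sequence of 1509 or 1512 bases. By coding sequence the cluster fell into 2 groups. Cyp3a11, Cyp3a16, Cyp3a41a, Cyp3a41b and Cyp3a44 were 92.4% to 99.9% identical to each other, Cyp3a25, Cyp3a57 and Cyp3a59 were 93.9% to 97.5% identical to each other, and between the groups identity was 73.9% to 75.9%. Cyp3a13 was 74.5% to 76.5% identical to the other 8 genes.

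The first 60 coding bases, all in the first coding exon, show this grouping and are printed for 5 genes because the near-identity of some copies limits how reads can be assigned to them. Capitals mark the bases that differ from Cyp3a11 at the same position, and the positions are those of GRCm38.
Cyp3a11, chr5:145879717-145879776, minus strand: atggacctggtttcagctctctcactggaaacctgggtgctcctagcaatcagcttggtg
Cyp3a41a, chr5:145719990-145720049, minus strand: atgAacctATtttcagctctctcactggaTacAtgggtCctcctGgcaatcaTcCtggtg
Cyp3a16, chr5:145469581-145469640, minus strand: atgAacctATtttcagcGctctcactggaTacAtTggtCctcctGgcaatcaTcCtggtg
Cyp3a25, chr5:146009481-146009540, minus strand: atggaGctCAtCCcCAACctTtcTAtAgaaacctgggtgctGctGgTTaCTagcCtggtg
Cyp3a13, chr5:137921453-137921512, minus strand: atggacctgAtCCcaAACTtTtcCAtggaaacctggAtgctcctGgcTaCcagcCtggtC
In this stretch Cyp3a41a differed from Cyp3a11 at 9 positions and Cyp3a16 at 11, whereas Cyp3a13 differed at 16 and Cyp3a25 at 20. Over the whole coding sequence Cyp3a41a and Cyp3a41b differed at 2 positions.

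Near-identical copies matter for the values because the authors' counting (RSEM) divides a read that matches several genes among them. In the main transcripts, 90.8% of the 100-base windows of Cyp3a41a and 88.2% of those of Cyp3a41b were found unaltered in another gene, so the division between these copies is uncertain. For Cyp3a11 the share was 0.312% (7 of 2245 windows), for Cyp3a25 6.05% and for Cyp3a59 5.61%, the windows of the last 2 genes being shared with each other. Cyp3a13 and Cyp3a57 had no shared window. A length of 100 bases was used because it is the length of 1 read.

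Levels are given in TPM, in principle the transcripts of a gene among 1000000 transcripts. This unit corrects for transcript length and library size and allows different genes to be compared within a library. The deposited values summed to 1005325 in the KO library and 994702 in the WT library, so they were not exactly on that scale. Cyp3a11 was listed at 3952.15 TPM in the KO library and 2808.29 TPM in the WT library, the highest of the subfamily in both. It ranked at position 34 of all genes in the KO library and 42 in the WT library, and it made up 86.7% and 82.3% of the summed Cyp3a level. Cyp3a25 came next at 499.99 TPM in KO against 509.31 TPM in WT, and the level of Cyp3a11 was 7.90 times that of Cyp3a25 in KO and 5.51 times in WT.

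Cyp3a13, the copy outside the cluster, was listed at 80.42 TPM in KO against 76.39 TPM in WT. Cyp3a59, at the far end of the cluster and closest in sequence to Cyp3a25, had 23.37 TPM in KO against 19.64 TPM in WT. These 4 genes, Cyp3a11, Cyp3a25, Cyp3a13 and Cyp3a59, held that order in both libraries, and the closest neighbours, Cyp3a13 and Cyp3a59, stood 3.44-fold apart in KO and 3.89-fold apart in WT.

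The other 5 genes were listed below 0.5 TPM in both libraries. Cyp3a41a had 0.33 TPM in KO against 0.21 TPM in WT, and Cyp3a41b had 0.16 TPM and 0.10 TPM. Cyp3a57, which is most like Cyp3a25 and Cyp3a59, had 0.05 TPM and 0.11 TPM. Cyp3a16 was listed at 0.05 TPM in KO against 0.03 TPM in WT and Cyp3a44 at 0.04 TPM and 0.03 TPM.

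The deposited TPM is a posterior mean, which stays above 0 for a gene without reads. Genes with 0 estimated reads had a median of 0.05 TPM in the KO library (711 genes, quartiles 0.03 and 0.09) and 0.04 TPM in the WT library (483 genes, quartiles 0.02 and 0.07). Cyp3a16 and Cyp3a44 therefore sat at the level of genes without reads in both libraries, and no fold is read from them. Cyp3a57 had 0 estimated reads in KO and 2 in WT, and Cyp3a41a had 10 and 7.93. Differences of these 5 genes between the libraries were not detectable at this depth.

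**Figure D1:**
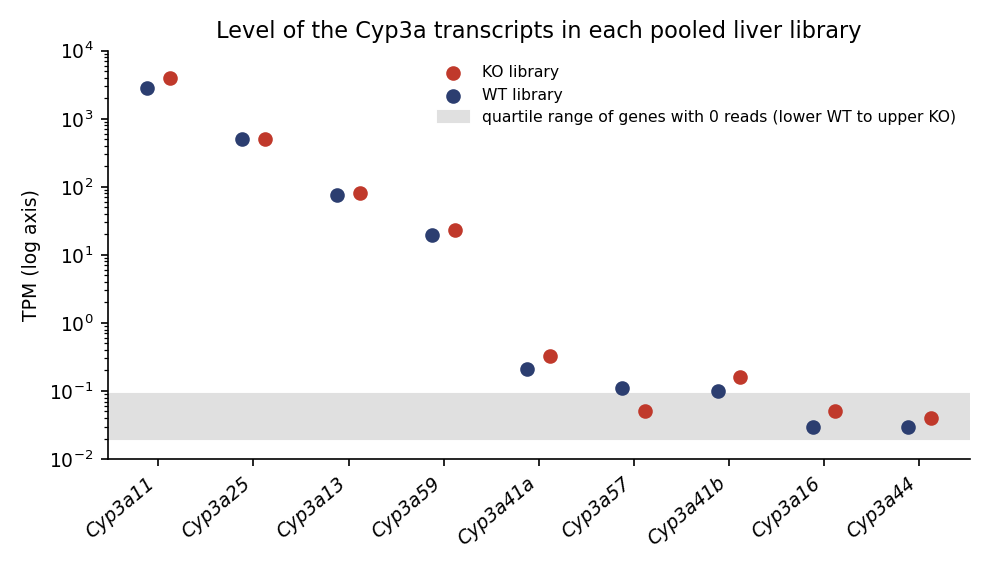
TPM of each Cyp3a gene (horizontal axis) on a log axis, with the KO library in red and the WT library in blue, 1 pooled library each. The grey band runs from the lower quartile in WT to the upper quartile in KO of genes with 0 estimated reads (0.02 to 0.09 TPM). Cyp3a11, Cyp3a25, Cyp3a13 and Cyp3a59 lie far above the band, while Cyp3a16 and Cyp3a44 lie inside it.

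Placed along the chromosome, the 3 genes with appreciable levels in the cluster were the last 3 in coordinate order, Cyp3a11, Cyp3a25 and Cyp3a59, and the 5 before them were those below 0.5 TPM. High and low genes thus occurred within both sequence groups. Cyp3a11 stood beside 4 relatives with at least 92.4% coding identity that were listed at 0.33 TPM or less. Cyp3a25 and Cyp3a59 stood in a group with Cyp3a57, which was listed at 0.11 TPM or less.

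**Figure D2:**
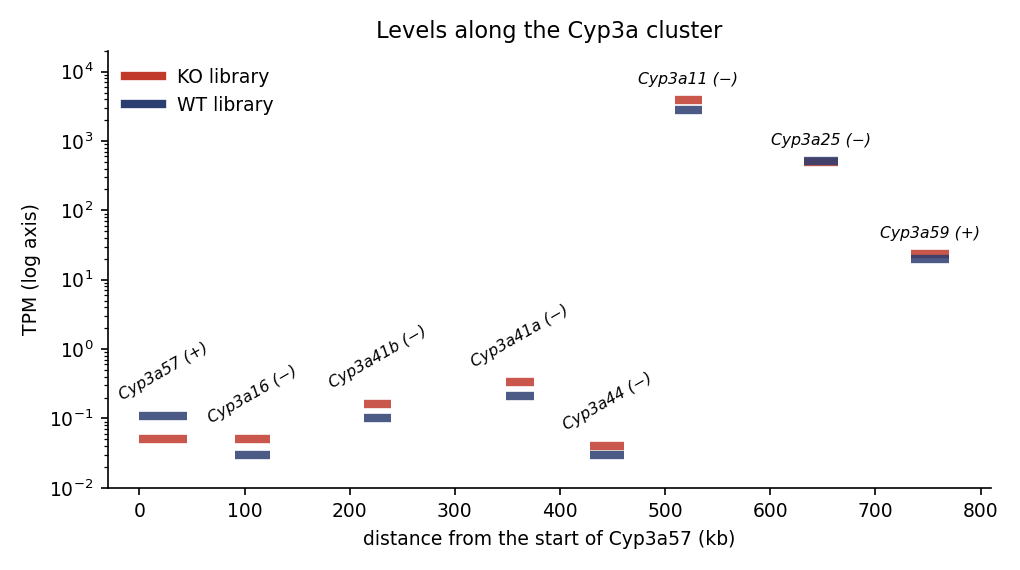
Level of the 8 clustered Cyp3a genes (TPM, log axis) against distance in kb from the start of Cyp3a57, each bar spanning the gene and the sign giving its strand. Red bars are the KO library and blue bars the WT library. The 3 genes above 10 TPM follow each other at the right end, and the 5 on the left are below 0.5 TPM in both libraries.

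The sequence before the transcription start was also compared, since the copies differ more in level than in coding sequence. The 250 bases upstream of the RefSeq start in GRCm38.p6 are shown for Cyp3a11, for Cyp3a16 as its nearest relative by upstream sequence (76.2% identity), and for Cyp3a25 (50.6% identity with Cyp3a11). For Cyp3a16 and Cyp3a25 the RefSeq start lies a few bases inside the outermost annotated end of the gene. Capitals mark matches on either strand to AGGTCA, the half-site of many nuclear receptors, and to TGTTTAC, a core sequence of forkhead factors.
Cyp3a11, chr5:145879855-145880104, minus strand: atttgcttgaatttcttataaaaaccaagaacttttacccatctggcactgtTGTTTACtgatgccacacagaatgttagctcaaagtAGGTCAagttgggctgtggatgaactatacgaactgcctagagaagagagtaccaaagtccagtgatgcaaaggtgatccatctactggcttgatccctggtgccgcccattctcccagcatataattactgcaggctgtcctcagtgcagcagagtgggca
Cyp3a16, chr5:145469724-145469973, minus strand: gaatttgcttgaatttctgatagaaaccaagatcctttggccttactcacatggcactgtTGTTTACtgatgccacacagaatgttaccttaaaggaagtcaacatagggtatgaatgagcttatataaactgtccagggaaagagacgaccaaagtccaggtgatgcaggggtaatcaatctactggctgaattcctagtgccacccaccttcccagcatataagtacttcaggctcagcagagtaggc
Cyp3a25, chr5:146009619-146009868, minus strand: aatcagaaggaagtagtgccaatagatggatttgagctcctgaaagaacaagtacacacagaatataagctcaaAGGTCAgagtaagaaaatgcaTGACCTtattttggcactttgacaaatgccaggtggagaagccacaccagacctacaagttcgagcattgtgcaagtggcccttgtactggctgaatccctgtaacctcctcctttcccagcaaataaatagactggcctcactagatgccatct
AGGTCA was found in 13.8% of 27025 promoter windows of the same length and in 5 of the 9 Cyp3a windows. It began 162 bases before the start of Cyp3a11 and occurred at 2 places in each of Cyp3a25, Cyp3a57 and Cyp3a59. TGTTTAC was found in 3.09% of all windows and in 5 of the 9 Cyp3a windows, those of Cyp3a11, Cyp3a16, Cyp3a41a, Cyp3a41b and Cyp3a44. These 5 windows were 71.7% to 99.6% identical to each other, and those of Cyp3a25, Cyp3a57 and Cyp3a59 were 88.9% to 94.8%. The copies are thus not independent, and the counts do not measure an enrichment. Cyp3a16, Cyp3a41a and Cyp3a41b had no match to AGGTCA, and Cyp3a44, listed at 0.04 TPM or less, had 1. None of the 9 windows held AGGTCA as a direct repeat with a spacer of 1 or 4 bases, found in 10 and 3 of all windows. TGAACT as a direct repeat with a spacer of 3 bases occurred in 0 of the 27025 windows. So did TGAACT followed after 6 bases by AGGTCA. Only exact strings were sought, so their absence does not show that the Cyp3a windows lack looser forms of these repeats. The 2 letter strings describe these windows and are not evidence of binding.

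Between genotypes, Cyp3a11 was higher in the KO library by 1143.86 TPM. With 1 TPM added to both values, its log2 change (KO over WT, as for all changes below) was 0.49, a fold of 1.41. A gene was counted as changed when that fold was at least 1.4 or at most 0.6 with an average of 1 TPM or more and a TPM above 0 in both libraries. Of the 9 genes, 4 reached the average of 1 TPM; 1 of them, Cyp3a11, was past the fold upward and 0 were past it downward. Among all 11609 genes with that average, 1.09% were past the fold upward (127 genes) and 0.301% downward (35 genes). With the inverse of 1.4 as the downward limit, 118 genes were past it downward, 0 of them Cyp3a genes. Cyp3a11 lay just inside the limit of 1.4, and it was the only member near either limit. Scaling both libraries to a sum of 1000000 would lower every fold slightly. That scaling was not run. From the library sums given above, Cyp3a11 would fall just short of 1.4 on it, and no Cyp3a gene would be past the limit.

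Cyp3a25 had a log2 change of -0.03, Cyp3a13 of 0.07 and Cyp3a59 of 0.24. Of these 4 genes, 3 had a value above 0, with a median of 0.16, and over all 11609 genes 5305 had a value above 0, with a median of -0.01. The middle 90% of the 6221 genes averaging at least 10 TPM ran from -0.25 to 0.19. Cyp3a25 and Cyp3a13 lay within that range, and Cyp3a59 and Cyp3a11 lay above it. Cyp3a59 stayed short of the fold of 1.4, at 1.18.

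Counting error could be judged from a second deposited table, which holds a normalized mean for each library in steps that correspond to 1 read. The reads estimated from it were 104902 in KO and 99670 in WT for Cyp3a11, from libraries of 22086688 and 29710410 estimated reads. The log2 ratio of the authors' means was 0.51 for Cyp3a11, with an exact (Clopper-Pearson) 95% interval of 0.49 to 0.52. Such intervals cover counting error only and say nothing of the spread between mice or of how the libraries were scaled. The TPM-based change of Cyp3a11, 0.493, lay just below the lower end of its interval, 0.495. For Cyp3a25 the ratio was -0.01 (interval -0.05 to 0.02; 12748 and 17380 reads), so no difference was detectable beyond counting error.

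For Cyp3a13 the log2 ratio of the means was 0.09 (interval 0.02 to 0.15; 3157 and 4015 reads). For Cyp3a59 it was 0.27 (interval 0.11 to 0.43; 601 and 675 reads). Both intervals lay above 0 and below the interval of Cyp3a11. For Cyp3a41a the ratio was 0.77, but with 10 and 7.93 reads the interval ran from -0.74 to 2.30 and held both no change and changes in either direction. Cyp3a16, Cyp3a41b and Cyp3a44 were not listed in this second table.

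**Figure D3:**
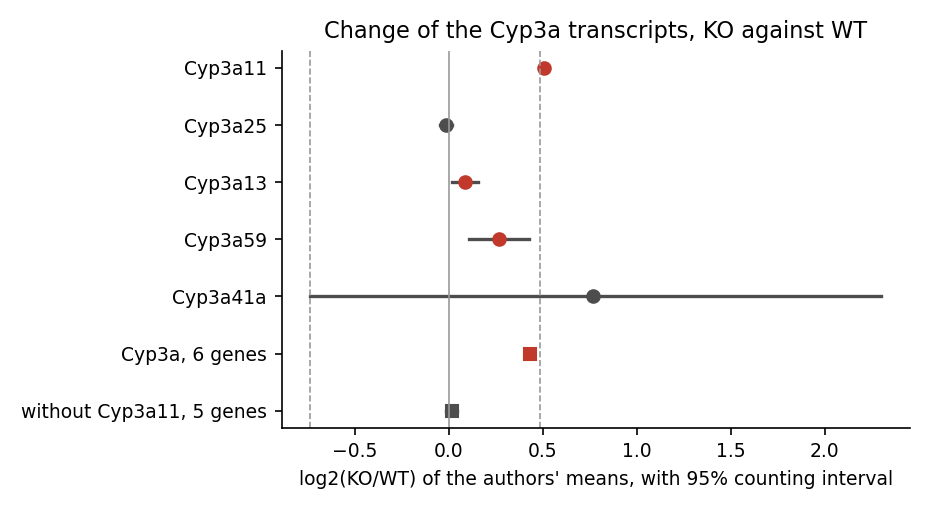
Log2 ratio of KO over WT from the authors' library means (points) with exact 95% counting intervals (lines), for the 5 Cyp3a genes with reads in both libraries and for the sums over the Cyp3a genes of that table with and without Cyp3a11 (squares). Red marks an interval wholly above 0, the solid line marks no change and the dashed lines the folds of 1.4 and 0.6. Cyp3a11 lies at 0.51 and Cyp3a25 at -0.01, and the sum goes from 0.43 to 0.01 once Cyp3a11 is left out.

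Summed over the 9 genes, Cyp3a transcripts were at 4556.56 TPM in KO against 3414.11 TPM in WT, a ratio of 1.33. Without Cyp3a11 the sum of the other 8 genes was 604.41 TPM in KO against 605.82 TPM in WT, a ratio of 0.998. The difference in the subfamily was therefore that of Cyp3a11, with a difference of -1.41 TPM over the other 8 genes together. On the authors' means the log2 ratio of the sum over the 6 listed genes was 0.43 (interval 0.42 to 0.44) with Cyp3a11 and 0.01 (interval -0.01 to 0.04) without it.

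Among P450 genes as a whole, the 100 genes with a Cyp symbol reached 20893.9 TPM together in the KO library against 18491.3 TPM in the WT library. Cyp3a genes made up 21.8% of that sum in KO and 18.5% in WT, and they accounted for 47.6% of the difference of 2402.55 TPM. The 91 P450 genes outside the subfamily had a summed ratio of 1.08, against 1.33 for Cyp3a. The Cyp2c genes, which like Cyp3a11 include targets of PXR and CAR, had a summed level of 4129.09 TPM (KO) against 3433.29 TPM (WT). Their log2 ratio was 0.27 beside 0.42 for Cyp3a. Of the 15 Cyp2c genes, 12 averaged at least 1 TPM, and 4 of these were past the fold upward. Over all genes with that average the share was 1.09%. The Cyp2b genes summed to 18.43 TPM and 8.88 TPM, a ratio of 2.08, almost all of it Cyp2b10.

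**Figure D4:**
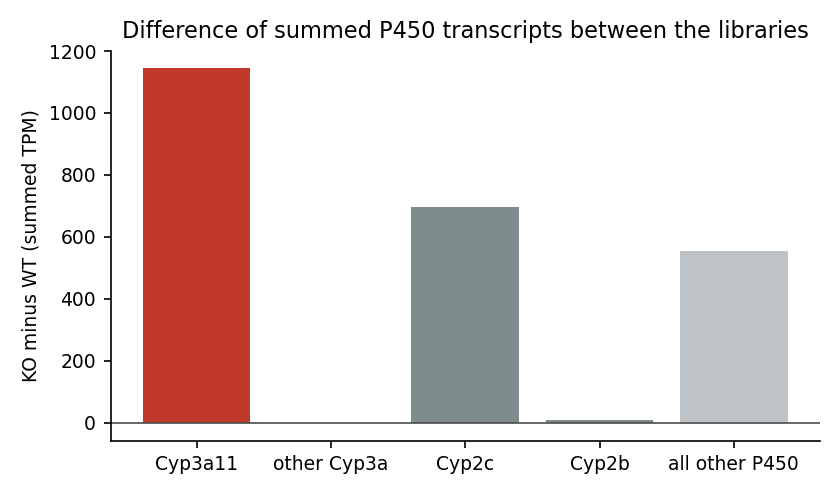
Difference of summed TPM, KO minus WT, for Cyp3a11, the other 8 Cyp3a genes, the Cyp2c genes, the Cyp2b genes and all other P450 genes (bars from 0, 1 pooled library per genotype). Cyp3a11 has the tallest bar at 1143.86 TPM, Cyp2c follows at 695.8 TPM, and the other Cyp3a genes are at -1.41 TPM.

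Cyp3a11 was also set beside other abundant genes, where a given fold involves many transcripts. Over all genes averaging at least 1 TPM, 1.09% were past the fold upward and 0.301% downward. Of 108 genes averaging at least 1000 TPM, 2 were past it upward and 0 downward. These were Cyp3a11 and Mup19, a major urinary protein gene with many near-identical copies, listed at 18620.6 TPM in KO against 12120.6 TPM in WT (log2 change 0.62). The 5 genes averaging at least 100 TPM whose log2 change was nearest to that of Cyp3a11 over the 2 libraries were Cyp2c54 (0.50), Cyp2c37 (0.47), Cyp8b1 (0.46), Igfbp2 (0.46) and Eno1b (0.43). Cyp2c54 and Cyp2c37 are P450s of the Cyp2c subfamily, and Cyp8b1 is the sterol 12-alpha-hydroxylase of bile acid synthesis.

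A list of 24 genes known as targets of PXR and CAR, Cyp3a11 included, was taken to see how the pathway around Cyp3a11 was placed. Over all 11609 genes averaging at least 1 TPM, 1.09% were past the fold upward and 0.301% downward. Of them, 5305 lay above 0, with a median of -0.01. Of the 21 list members with that average, 4 were past the fold upward and 0 downward, 13 lay above 0, and the median log2 change was 0.11. Without Cyp3a11 the median was 0.07, with 3 of 20 past the fold. The members past it were Cyp2b10, Cyp2c54 and Cyp2c55 besides Cyp3a11. Cyp2b10, the usual marker of CAR activity, was listed at 18.24 TPM in KO against 8.7 TPM in WT, a log2 change of 0.99 and the highest of the list.

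Cyp2c54 was at 224.75 TPM in KO against 158.09 TPM in WT, and Cyp2c55 at 11.39 TPM and 7.85 TPM. The lowest of the list was Gstm3, a glutathione transferase, at 42.9 TPM in KO against 68.62 TPM in WT (log2 change -0.67), which did not reach the downward fold. The list thus held values on both sides of 0, with the P450 members among its higher values and glutathione transferases among its lower ones.

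A second list held 28 regulators of Cyp3a transcription. None of the 27 averaging at least 1 TPM was past the fold in either direction, 12 lay above 0, and the median was -0.03. Of all 11609 genes with that average, 1.09% were past it upward and 0.301% downward, 5305 lay above 0 and the median was -0.01. The counts of the list are near these shares and do not set the regulators apart. PXR itself (Nr1i2) was at 50.45 TPM in KO against 59.93 TPM in WT, a log2 change of -0.24. CAR (Nr1i3) was at 83.36 TPM and 72.46 TPM, a log2 change of 0.20. The lowest of the list was Foxa2, a forkhead factor, at 14.7 TPM and 20.96 TPM (-0.48). The vitamin D receptor (Vdr) was at 0.03 TPM or less.

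Proteins that pass electrons to P450s or belong to the family of Pgrmc1 formed a further list of 10 genes, in which 0 were past the fold upward and 1 downward, with a median of -0.05. The 1 was Pgrmc1, the deleted gene, at 0.68 TPM in KO against 949.49 TPM in WT (log2 change -9.14). The library labelled KO thus carried little Pgrmc1 transcript. Shares past the fold over all genes averaging at least 1 TPM were 1.09% upward and 0.301% downward. Por was at 179.35 TPM in KO against 178.39 TPM in WT (0.01). Cyb5, which encodes cytochrome b5, was the highest of the list at 1678.54 TPM and 1548.8 TPM (0.12).

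**Figure D5:**
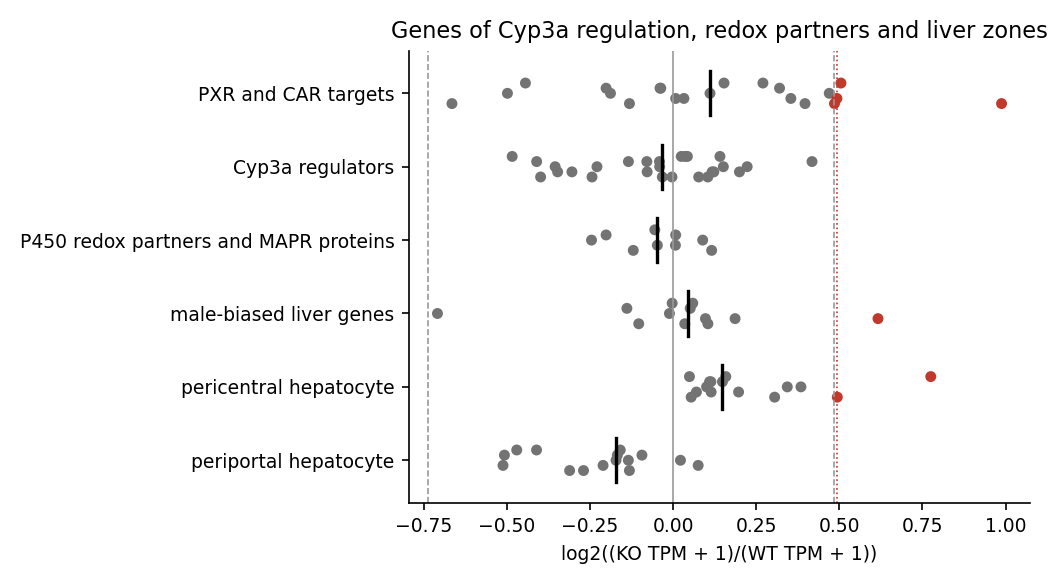
Log2 change of KO over WT with 1 TPM added, for each gene averaging at least 1 TPM (points) in 6 lists; red points are past the fold upward, black bars are list medians, dashed lines are the folds of 1.4 and 0.6, and the dotted red line is Cyp3a11. Pgrmc1, at -9.14, is off the scale and left out. PXR and CAR targets spread to both sides of 0, all 15 pericentral genes lie above 0 and 13 of 15 periportal genes lie below 0.

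Several of the low Cyp3a genes are known for a sex difference in liver, so sex-biased transcripts were read beside them. Of 15 genes known to be female-biased, the 4 Cyp3a genes Cyp3a16, Cyp3a41a, Cyp3a41b and Cyp3a44 included, 13 were below 0.5 TPM in both libraries, and Xist was at 0.02 TPM in both. The other 2 were Acot3, an acyl-CoA thioesterase, at 1.44 TPM in KO against 0.75 TPM in WT (log2 change 0.48), and Cyp2a4, at 0.22 TPM and 70.88 TPM (-5.88). Cyp2a4 was past the fold downward, and the median of these 2 was -2.70, while over all 15 genes with no filter on low values it was 0.03. Cyp2a4 has a near-identical neighbour gene, Cyp2a5, and reads may be divided between them.

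Among all genes averaging at least 1 TPM, 1.09% were past the fold upward and 0.301% downward, with a median of -0.01. Of 12 male-biased genes, 1 was past the fold upward and 0 downward, with a median of 0.04. It was Susd4, at 15.71 TPM in KO against 9.9 TPM in WT (0.62), and the lowest was Mup20, a major urinary protein gene, at 17437.6 TPM and 28502.6 TPM (-0.71). Both libraries thus had male-biased transcripts at high levels and the female-biased Cyp3a transcripts at 0.33 TPM or less.

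Cyp3a11 is known to be higher near the central vein, so genes of the zones of the liver lobule were read beside it. Most of them were not past the fold, and over all 11609 genes averaging at least 1 TPM 1.09% were past it upward and 0.301% downward. Of 15 other pericentral hepatocyte genes all 15 had a log2 change above 0, beside 5305 of 11609 over all genes, with a median of 0.15 and 2 past the fold upward. These were Tbx3, a transcription factor, at 12.52 TPM in KO against 6.9 TPM in WT (0.78), and Rhbg, an ammonium transporter, at 8.52 TPM and 5.76 TPM (0.49). The lowest was Rgn at 1070.31 TPM and 1034.39 TPM (0.05). The summed level of the list was 9075.61 TPM in KO against 8251.31 TPM in WT.

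Of 15 periportal hepatocyte genes, 2 lay above 0, beside 5305 of 11609 over all genes, and 0 were past the fold. Their median was -0.17, beside -0.01 over all genes, with sums of 8421.62 TPM in KO against 9653.36 TPM in WT. The highest was Ctsc at 0.08 and the lowest Apoa4 at -0.51. The part of the zonal genes' values in that of Cyp3a11 was not tested. In bulk RNA, fewer cells of a type and less RNA per cell cannot be told apart.

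The labelled tissue carried its defining markers. As background, 5305 of the 11609 genes averaging at least 1 TPM had a log2 change above 0, with a median of -0.01. The 10 hepatocyte markers summed to 97421.1 TPM in KO against 100015 TPM in WT, with a median log2 change of 0.01, none past the fold, the highest being Fgb (0.09) and the lowest Tat (-0.28). All 10 Kupffer cell markers lay above 0 (median 0.17; sums 399.99 TPM and 352.73 TPM, from Vsig4 at 0.10 to C1qa at 0.24). All 10 endothelial markers lay below 0 (median -0.09; 237.48 TPM and 260.18 TPM, from Lyve1 at -0.60 to Bmp2 at -0.03). Of 10 stellate cell markers 2 lay above 0 (median -0.15; 292.62 TPM and 325.15 TPM, from Rgs5 at -0.53 to Lrat at 0.17).

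Of 8 cholangiocyte markers, 4 averaged at least 1 TPM (median -0.12; sums 62.39 TPM and 67.35 TPM, from Epcam at -0.59 to Krt19 at 0.01). Of 7 genes of the intestine, where Cyp3a genes are also expressed, 5 (Sis, Lct, Alpi, Vil1 and Cdx2) were below 0.5 TPM in both libraries. The other 2 were Fabp2 (0.13) and Apoa4 (-0.51), the latter also in the periportal list (median -0.19; sums 371.44 TPM and 457.85 TPM). No marker of these 6 lists was past the fold in either direction, beside 1.09% of all genes upward and 0.301% downward. The part of these markers in the result was not tested.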

How the data were processed

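Liver RNA of 5 male mice per genotype was pooled by the authors, made into 1 stranded total RNA library per genotype and sequenced in paired reads of 100 bases. Per the labels and the study's methods, reads were processed with CASAVA 1.8.2 and aligned and quantified with RSEM 1.2.09 and Bowtie on mm10 (GRCm38), versions being those of the submitters' processing notes. The deposited table of 24054 genes holds posterior-mean TPM for each library. A second deposited table of 16318 genes, written by EBSeq, holds 1 normalized mean per library (signal), and its 2 mean columns were assigned to genotypes through the KO and WT headings given to the same values in the study's supplementary list. Its other columns, probabilities of equal and differential expression and fold changes, are the authors' own comparison and were not used. There were 0 unmapped sample columns.

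Changes were computed as log2((KO TPM + 1)/(WT TPM + 1)), and a gene was counted past a fold of 1.4 upward or 0.6 downward if it averaged 1 TPM or more. Reads were estimated by dividing the authors' means by the value of 1 read (1.16 in KO, 0.860 in WT). Because RSEM gives fractional reads, 78.4% and 75.0% of values came out whole within 0.02, so no count test was run, and with 1 library per genotype none could show a difference between genotypes. Intervals were exact (Clopper-Pearson) on the estimated reads, and the fold rule and intervals were tested on simulated data. Coding sequences came from GENCODE release 21 for mouse on GRCm38 and were aligned with Biopython 1.88, and promoters came from RefSeq GRCm38.p6, where all 9 genes matched. Python 3.11.15, pandas 2.3.3, numpy 2.4.6, scipy 1.17.1 and matplotlib 3.10.9 were used.

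The members and the gene lists were chosen with earlier results of these data known. Named were all Cyp3a genes, Pgrmc1, Nr1i2, Nr1i3, Por and Cyb5, of each list the genes past the fold and the highest and lowest, and the 5 genes averaging 100 TPM or more nearest to Cyp3a11. Mup19, Cyp2a5, Vdr, Xist and the 5 intestinal genes at low levels were named after their values were seen. The highest gene of 1 list is not reported here. Alternatives changed the fold, the filter, the pseudocount, the scaling, the source table and the members summed. Older symbols were matched through RefSeq synonyms. Proteins were not analysed here.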

Additional observations from a re-analysis of the deposited data

How the results depend on the processing

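No paired analysis was possible because there is only 1 library of KO and 1 of WT, and for the same reason no replicate could be left out. The log2 ratio of the summed Cyp3a level, 0.42, was 0.43 on the authors' means and 0.43 when centred on the median gene, and -0.0034 without Cyp3a11. Leaving out Cyp3a57, an alternative chosen after seeing the data, gave 0.42. Cyp3a11 had log2 changes of 0.49 to 0.51 over 4 alternatives, which did not include scaling both libraries to a sum of 1000000. On that scaling Cyp3a11 would fall just short of the fold of 1.4. It was past the fold upward in every alternative run except a fold of 2, where 0 members passed. Counts over all genes moved more. Against 127 up and 35 down, a fold of 2 or 0.5 gave 31 and 13, a fold of 1.2 or its inverse gave 613 and 640, a mean of at least 10 TPM gave 48 and 17, a pseudocount of 0.1 TPM gave 266 and 70, and the authors' means gave 309 and 87. With 1.4 and its inverse as limits the counts were 127 and 118, so most of the excess of upward genes came from the unequal limits. Of 38 alternatives for single Cyp3a genes 36 moved the value by less than its counting error. For the 3 genes not listed in the table of means 1 read per library was assumed, which gives a very wide error. Cyp3a57 had 0 estimated reads in KO, so its error had no lower bound. For these genes the outcome was all but fixed in advance. The other 2 alternatives moved the value of Cyp3a11 within the range above, and none reversed a direction. Of 41 alternatives for list medians 4 moved it by more than 0.1. The female-biased median of -2.70 rests on 2 genes and was 0.03 over all 15 with no filter, -5.88 with a mean of at least 10 TPM, which left 1 gene, and -3.47 with a pseudocount of 0.1 TPM. The intestinal median of -0.19 was 0 over all 7 genes. Depth limits the 5 genes below 0.5 TPM, where no difference between the libraries was detectable.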
